A study of Mus musculus with 7 samples.

Results

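The genes described here are the receptors, kinases, inhibitor and ligand of gp130 cytokine signalling. They were found in the deposited expression table by gene symbol: Il6st, Lifr, Osmr, Il6ra, Cntfr, Jak1, Jak2, Tyk2, Socs3 and Lif, 10 of 54309 listed genes, each with 1 row. The series asks how clock time tunes axon regeneration. RNA came from L4 to L6 dorsal root ganglia (DRG, the clusters of sensory neuron cell bodies that project into the sciatic nerve) of C57bl/6 mice labelled male and 6 to 8 weeks old. Per the labels, neurons were enriched from the ganglia on an albumin gradient after enzymatic dissociation, so the levels are not those of intact ganglia. In 4 samples the sciatic nerve was injured at Zeitgeber time 20 (ZT20, hours after lights on, in the active phase of mice) and in 3 samples at ZT8, in the rest phase; the ganglia of both groups were taken 72 h later, so injury and dissection fell at the same clock time and their effects cannot be told apart. All samples were injured, so no value below says what injury itself changed. The labels do not say whether a sample was 1 animal or a pool, and p-values measure only the spread between these samples.

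Cytokines of the interleukin-6 family signal through gp130, the shared receptor chain encoded by Il6st. LIF brings gp130 together with LIFR, oncostatin M with OSMR or LIFR, CNTF with LIFR and the membrane-anchored CNTFR, and interleukin-6 first binds IL6RA and then joins gp130 chains. None of the receptor chains has kinase activity of its own. JAK1, JAK2 and TYK2 sit on their inner parts and phosphorylate STAT3, which enters the nucleus and switches on target genes, among them Socs3, whose product binds gp130 and the JAKs and shuts the signal down. In sensory neurons LIF, CNTF and interleukin-6 are released around a cut nerve, and STAT3 carried back along the axon is part of the conditioning response that favours regrowth.

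Some values of the whole series touch what follows. Levels are TPM (transcript abundance, corrected for transcript length and scaled to the same sum in every sample), so sequencing depth is unknown and levels can be compared between genes. Genes above 0 TPM numbered 24192 to 25238 at ZT20 and 18297 to 22973 at ZT8, with the lowest number in ZT8 replicate 2. The summed level of 7 neuronal markers was 12364 to 13643 TPM at ZT20 and 10521 to 13427 TPM at ZT8, so transcripts of neurons were abundant in every sample. Transcripts of other cells were present too. The summed level of 6 satellite glia markers was 6989 to 8467 TPM at ZT20 and 11777 to 14470 TPM at ZT8, and that of 7 macrophage markers 110 to 148 and 155 to 360 TPM, without overlap of the groups in either list. The libraries labelled ZT20 replicates 3 and 4 held 0.0162 and 0.00868 TPM over 4 Y-linked genes, against 33.1 to 84.6 TPM in the other 5 samples, and Xist at 2.21 and 2.30 TPM, so they go against the label male. ZT20 replicate 2 held both, with Xist at 1.08 TPM. The called members are therefore also given without ZT20 replicates 3 and 4. Library identifiers are numbers at ZT20 and letters at ZT8, so any difference in library handling cannot be told apart from clock time.

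Promoter sequences are shown for the members called higher at ZT20 and for Socs3, the textbook STAT3 target. RefSeq windows on build GRCm38.p6 (250 bases before to 50 after a start) were matched for 10 of 10 genes, 16 windows in all. For Il6st (chr13:112463950-112464069, plus strand), Lifr at its starts 1 and 2 (chr15:7129452-7129571 and chr15:7140422-7140541, plus strand), Osmr (chr15:6874314-6874433, minus strand) and Jak1 (chr4:101265224-101265343, minus strand), the 120 bases before the start read as follows, with CpG pairs, the bases at which DNA is methylated, in capitals.
Il6st: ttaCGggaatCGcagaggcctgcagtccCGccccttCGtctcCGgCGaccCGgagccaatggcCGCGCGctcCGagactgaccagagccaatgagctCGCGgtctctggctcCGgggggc
Lifr, start 1: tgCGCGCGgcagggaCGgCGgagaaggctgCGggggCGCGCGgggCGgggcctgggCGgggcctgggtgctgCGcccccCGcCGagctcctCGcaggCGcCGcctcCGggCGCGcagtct
Lifr, start 2: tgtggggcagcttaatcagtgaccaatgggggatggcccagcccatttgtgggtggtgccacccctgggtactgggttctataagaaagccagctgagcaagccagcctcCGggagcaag
Osmr: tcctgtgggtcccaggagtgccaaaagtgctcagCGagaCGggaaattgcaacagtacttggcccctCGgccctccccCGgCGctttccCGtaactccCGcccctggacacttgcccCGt
Jak1: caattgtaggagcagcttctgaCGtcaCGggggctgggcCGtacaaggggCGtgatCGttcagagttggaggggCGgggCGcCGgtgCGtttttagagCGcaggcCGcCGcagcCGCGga

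The 250 bases before the start held 26 CpG pairs in Il6st, 18 in Osmr and 19 in Jak1, against a median of 6 over all 32851 windows. Among the members not called, Jak2 held 37, Socs3 26, Tyk2 19, Il6ra 18 and Lif 6, and the starts of Cntfr 3 to 37. The starts of Lifr differed, with 43 CpG pairs at start 1 and 3 at start 2, and the table of levels does not separate transcripts from either. The letters TTCNNNGAA, a form of the site STAT proteins bind, and CACGTG, the E-box that CLOCK and BMAL1 bind, were searched on both strands of the whole windows. TTCNNNGAA occurred in 8.30% of all windows and CACGTG in 7.15%. None of the 5 windows above held either. The Socs3 window held 1 TTCNNNGAA, beginning 154 bases before the start, and the Il6ra window 1 CACGTG, beginning 24 bases before the start. The 250 bases before the Socs3 start (chr11:117969367-117969616, minus strand) are given with the match in capitals.
Socs3: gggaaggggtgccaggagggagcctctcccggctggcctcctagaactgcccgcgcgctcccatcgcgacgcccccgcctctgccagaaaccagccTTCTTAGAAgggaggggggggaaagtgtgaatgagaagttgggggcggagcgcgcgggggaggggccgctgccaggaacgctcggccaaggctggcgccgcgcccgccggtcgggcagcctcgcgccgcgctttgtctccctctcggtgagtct

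A match of these letters is a description of the sequence, and binding was not measured.

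The 10 genes covered a wide range of levels. At ZT20 Lifr had the highest mean (416 TPM), followed by Jak1 (188 TPM), Il6st (93.3 TPM), Socs3 (59.7 TPM), Cntfr (23.9 TPM), Osmr (6.94 TPM), Tyk2 (4.0 TPM), Il6ra (2.95 TPM), Jak2 (2.35 TPM) and, far below, Lif. Neighbours in that order with overlapping sample ranges were Il6st and Socs3, Osmr and Tyk2, Tyk2 and Il6ra, and Il6ra and Jak2. At ZT8 the order was the same except that Socs3 (78.2 TPM) stood above Il6st (47.9 TPM), and the only neighbours with separate ranges were Cntfr and Osmr. Lifr lay at the 87.1th to 98.3th percentile of the 14800 genes tested, depending on the sample, and Osmr at the 13.3th to 40.0th.

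**Figure D1:**
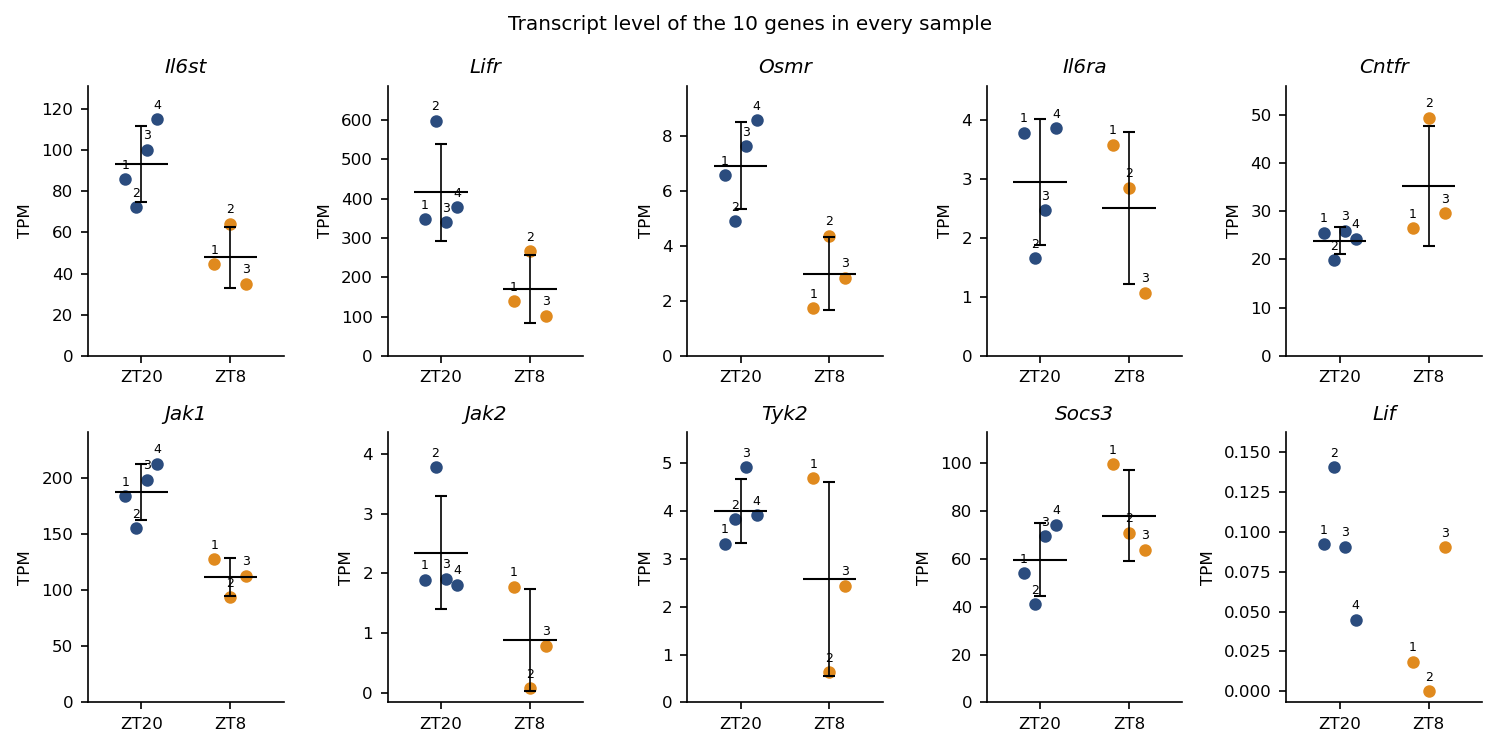
Level of each of the 10 genes (vertical axis, TPM, a separate linear scale per gene) in every sample, with points numbered by replicate, a horizontal line at the group mean and bars of 1 SD (none for Lif, which is listed at 0 in a sample). The 4 ZT20 points of Il6st, Lifr, Osmr and Jak1 lie above all 3 ZT8 points, and those of Cntfr below them.

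Transcripts of the signalling receptor chains and of the main kinase were higher after injury at ZT20: 3 of the 5 receptor genes (Il6st, Lifr and Osmr) and 1 of the 3 kinases (Jak1). By limma over 14800 genes with Benjamini-Hochberg adjustment, 4 of the 9 members that could be tested passed an adjusted p of 0.05, all 4 higher at ZT20, and 0 were lower. After a correction for transcript length and GC content 0 passed, without ZT20 replicate 3 or without ZT20 replicate 4 also 0, and under median-ratio scaling 1 (Jak1). Of all genes tested, 12.8% passed higher and 3.61% lower (16.4% in either direction), a balance that turned round after the same correction (528 genes higher and 776 lower). Lif was under the filter of a mean of 1 TPM. In 6 of the 9 no ZT20 sample lay inside the ZT8 range, with ZT20 above in 5 and below in 1, against 33.2% of all genes tested (24.5% with ZT20 above and 8.72% with ZT20 below). The median log2 difference was 0.75 over the 9 members and 0.23 over all genes tested.

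Il6st (ENSMUSG00000021756), the gp130 chain through which all these cytokines signal, had levels of 85.6, 72.3, 100.1 and 115.0 TPM at ZT20 (here and below in the order of replicates 1 to 4) and of 44.4, 64.2 and 35.1 TPM at ZT8 (replicates 1 to 3). Every ZT20 sample lay above every ZT8 sample, and the nearest pair, ZT20 replicate 2 and ZT8 replicate 2, stood 1.13-fold apart. The ZT20 mean of 93.3 ± 18.4 TPM (SD, n = 4) was 1.95 times the ZT8 mean of 47.9 ± 14.8 TPM (SD, n = 3). The log2 difference of TPM + 1 was 0.97 with a standard error of 0.23 and a 95% interval of 0.45 to 1.49 (limma adjusted p = 0.0257). It was 0.28 after the length and GC correction (limma adjusted p = 0.414), 0.74 under median-ratio scaling (limma adjusted p = 0.0633) and 0.75 without ZT20 replicates 3 and 4 (limma adjusted p = 0.267). Of the fits without 1 replicate, those without ZT20 replicate 2 and without ZT8 replicate 2 kept the call.

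Lifr (ENSMUSG00000054263) encodes the signalling partner of gp130 for LIF and CNTF and had the highest mean of the 10 transcripts in both groups. It was at 347, 598, 340 and 379 TPM at ZT20 and at 139, 266 and 102 TPM at ZT8, where Jak1 (113 TPM) was higher in replicate 3. The groups did not overlap, with ZT20 replicate 2 far above the other ZT20 samples and ZT8 replicate 2 the highest of its group. The log2 difference was 1.37 with a standard error of 0.32 and a 95% interval of 0.63 to 2.11 (limma adjusted p = 0.0259), and the ratio of the means was 2.46. It was 0.69 after the length and GC correction (limma adjusted p = 0.198), 1.14 under median-ratio scaling (limma adjusted p = 0.0652) and 1.54 without ZT20 replicates 3 and 4 (limma adjusted p = 0.194). Without ZT20 replicate 2 it was 1.18 (limma adjusted p = 0.0552), and of the fits without 1 replicate only that without ZT8 replicate 2 kept the call.

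Osmr (ENSMUSG00000022146), the chain specific to oncostatin M and shared with the interleukin-31 receptor, was much scarcer. Its levels were 6.59, 4.90, 7.65 and 8.60 TPM at ZT20 and 1.73, 4.39 and 2.85 TPM at ZT8. The groups were separate, with ZT20 replicate 2 and ZT8 replicate 2 again nearest each other. The log2 difference was 1.02 with a standard error of 0.29 and a 95% interval of 0.36 to 1.68 (limma adjusted p = 0.0450). Of the 4 members called it had the highest adjusted p. The call was lost in 15 of 19 alternative fits. Among these, the difference was 0.51 after the length and GC correction (limma adjusted p = 0.298), 0.72 after quantile normalization (limma adjusted p = 0.151) and 0.80 without ZT20 replicates 3 and 4 (limma adjusted p = 0.378), and of the fits without 1 replicate only that without ZT8 replicate 2 kept the call.

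The chains that recognise a ligand without signalling themselves, Cntfr and Il6ra, did not pass, and whether their differences departed from those of the other receptors was not tested. Cntfr (ENSMUSG00000028444), the lipid-anchored chain that binds CNTF, was at 25.6, 19.9, 25.9 and 24.3 TPM at ZT20 and at 26.5, 49.4 and 29.5 TPM at ZT8. All ZT20 values were below all ZT8 values, but ZT20 replicate 3 and ZT8 replicate 1 differed by only 1.02-fold, and ZT8 replicate 2 stood above the rest. The log2 difference of −0.49 did not pass (95% interval −1.0 to 0.018, limma adjusted p = 0.157), and without ZT8 replicate 2 it was −0.23. Il6ra (ENSMUSG00000027947), which binds interleukin-6, was at 3.79, 1.66, 2.48 and 3.87 TPM at ZT20 and at 3.58, 2.86 and 1.07 TPM at ZT8. Its groups overlapped over most of their range, and the log2 difference of 0.20 had a 95% interval of −0.60 to 1.01 (limma adjusted p = 0.710), so differences of up to that size in either direction were not distinguished.

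The make-up of the receptor transcripts can be read within each sample, where scaling between samples plays no part. Transcript length still bears on shares and ratios: Lifr (9655 nt) and Il6st (8678 nt) are long and Cntfr (1995 nt) and Socs3 (2552 nt) short, and over all genes the median log2 difference was 0.69 in the length group of the former and −0.018 and 0.079 in those of the latter. The part of length in them was not tested. Lifr made up 71.4% to 85.8% of the summed TPM of the 5 receptor genes at ZT20 and 59.8% to 68.8% at ZT8, and Cntfr 2.85% to 5.46% and 12.3% to 17.3%. The groups did not overlap in either share. The shares of Il6st (10.4% to 21.7% and 16.6% to 20.6%), Osmr (0.704% to 1.62% and 0.803% to 1.67%) and Il6ra (0.238% to 0.809% and 0.630% to 1.66%) overlapped. Per Cntfr transcript there were 13.6, 30.1, 13.1 and 15.6 Lifr transcripts at ZT20 and 5.26, 5.39 and 3.45 at ZT8. That ratio of transcripts was higher in every ZT20 sample than in any ZT8 sample, and receptor protein was not measured. The ratio of Lifr to Il6st overlapped, at 3.29 to 8.27 and 2.90 to 4.15. The shares are descriptions, as are the 6 ratios computed, which were chosen after the values were seen. Of the 6 ratios, 4 were separate between the groups, and how many other gene pairs would be separate is not given here. Lifr over Osmr overlapped (44.0 to 122 at ZT20 and 35.7 to 80.5 at ZT8). Cntfr over Il6st was separate (0.211 to 0.299 and 0.596 to 0.841).

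**Figure D2:**
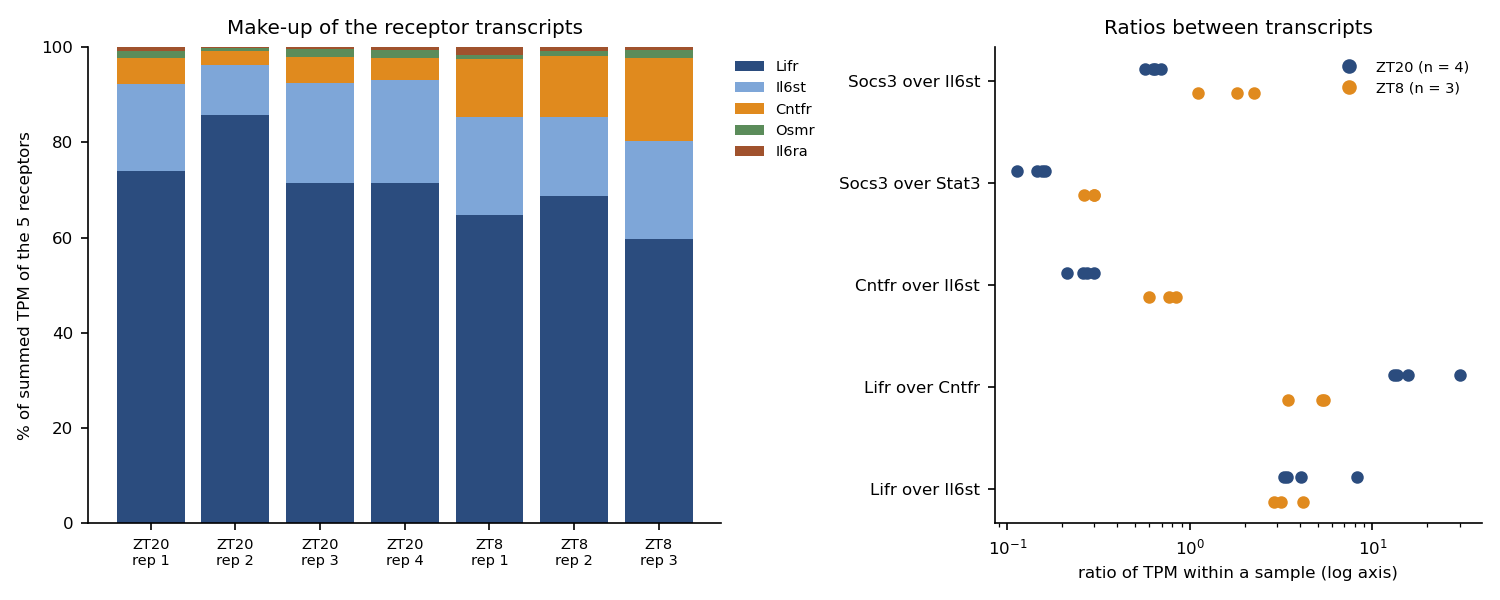
Left, share of each receptor gene in the summed TPM of the 5 receptor genes (vertical axis, percent) in each of the 7 samples; right, 5 ratios of TPM within a sample (horizontal log axis), 1 point per sample. Lifr takes 71.4% or more of the sum in each ZT20 sample and 68.8% or less at ZT8, and Socs3 over Il6st is 0.695 or less in each ZT20 sample and 1.11 or more at ZT8.

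Of the kinases, Jak1 made up nearly all of the transcripts. Jak1 (ENSMUSG00000028530), the kinase on which gp130 signalling chiefly depends, was at 184, 155, 199 and 213 TPM at ZT20 and at 128, 93.9 and 113 TPM at ZT8. The ZT20 samples all lay above the ZT8 samples, the lowest of them 1.21-fold over the highest ZT8 sample. The log2 difference was 0.75 with a standard error of 0.15 and a 95% interval of 0.40 to 1.09 (limma adjusted p = 0.0162), the lowest adjusted p of the 9 tested members. It was 0.28 after the length and GC correction (limma adjusted p = 0.149), 0.74 with a covariate for neuronal against other cell markers (limma adjusted p = 0.113) and 0.61 without ZT20 replicates 3 and 4 (limma adjusted p = 0.218). It also missed the threshold without ZT20 replicate 3 (limma adjusted p = 0.0617) and without ZT20 replicate 4 (limma adjusted p = 0.0560). Jak1 was 94.5% to 96.8% of the summed TPM of Jak1, Jak2, Jak3 and Tyk2 at ZT20 and 93.0% to 96.7% at ZT8, so that share overlapped. In GENCODE M21 Jak1 overlaps Gm12785 on the same strand and Raver2 and Gm24468 on the other, and whether the counting used strand is not stated.

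Jak2 (ENSMUSG00000024789) was at 1.89, 3.77, 1.91 and 1.81 TPM at ZT20 and at 1.77, 0.0764 and 0.785 TPM at ZT8. ZT20 replicate 2 was high and ZT8 replicate 2 the lowest, while the lowest ZT20 and the highest ZT8 value differed by 1.02-fold. The log2 difference of 0.90 did not pass (95% interval 0.048 to 1.75, limma adjusted p = 0.127). Tyk2 (ENSMUSG00000032175), the third kinase of the pathway, was at 3.32, 3.84, 4.91 and 3.92 TPM and at 4.69, 0.636 and 2.44 TPM. Its groups overlapped and the log2 difference of 0.64 did not pass (95% interval −0.26 to 1.55, limma adjusted p = 0.278). Without ZT8 replicate 2, the sample with the fewest genes above 0 TPM, the difference was 0.55 for Jak2 and 0.17 for Tyk2, and without ZT8 replicate 1 it was 1.23 for Jak2 (limma adjusted p = 0.0568) and 1.07 for Tyk2 (limma adjusted p = 0.0751).

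Socs3 (ENSMUSG00000053113), the feedback inhibitor that STAT3 induces, did not pass. It was at 53.9, 41.0, 69.6 and 74.3 TPM at ZT20 and at 99.7, 71.0 and 63.8 TPM at ZT8. ZT20 replicates 3 and 4 lay within the ZT8 range, so the groups overlapped. The log2 difference was −0.39 (95% interval −0.93 to 0.14, limma adjusted p = 0.266). It was −0.23 without ZT20 replicate 2, −0.21 without ZT8 replicate 1 and −0.70 without ZT20 replicates 3 and 4. Set against gp130 in the same sample, Socs3 stood at 0.630, 0.566, 0.695 and 0.646 transcripts per Il6st transcript at ZT20 and at 2.24, 1.11 and 1.82 at ZT8. That ratio did not overlap between the groups and was nearly the same in all 4 ZT20 samples. The ratio of Socs3 to Stat3 was likewise separate, at 0.113 to 0.161 and 0.262 to 0.30. Both ratios were among those chosen after the values were seen. They set a short transcript (Socs3, 2552 nt) against long ones (Il6st, 8678 nt, and Stat3, 6042 nt). The median log2 differences of their length groups were 0.079, 0.69 and 0.56, and the part of length in the ratios was not tested.

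Lif (ENSMUSG00000034394), the cytokine, was close to the limit of the table. It was listed at 0.0924, 0.141, 0.0907 and 0.0450 TPM at ZT20 and at 0.0186, 0 and 0.0902 TPM at ZT8. These values overlap. Lif was left out of the main test by the filter, and in the fit without a filter its log2 difference was 0.076 (SE 0.047, limma adjusted p = 0.436). The other ligands were also scarce: of 10 further ligand genes, 5 reached a mean of 1 TPM and 0 passed the adjusted threshold. Il6 was between 0.809 and 1.3 TPM at ZT20 and at 0.731, 3.88 and 0.605 TPM at ZT8, so ZT8 replicate 2 alone was high. Osm, the gene of oncostatin M and mostly a product of myeloid cells, was at 0.865 to 3.88 TPM and 0.504 to 3.37 TPM. Cntf, made by Schwann cells, was at 3.17 to 5.41 TPM and 2.72 to 7.40 TPM, and in GENCODE M21 it overlaps Zfp91 on the same strand. Il11 stayed between 0 and 0.191 TPM in every sample. The log2 differences were −0.23 for Il6 (limma adjusted p = 0.719), 0.21 for Osm (limma adjusted p = 0.761) and −0.07 for Cntf (limma adjusted p = 0.886).

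Downstream and around these genes, a list of 52 further pathway genes was read in the same fit. Of these 43 were tested, 8 passed higher at ZT20 and 2 lower, and 33 did not pass, where 12.8% of all genes tested passed higher and 3.61% lower. After the correction for length and GC content 1 passed higher and 3 lower. The median log2 difference of 0.19 was close to the 0.23 of all genes tested. By role, 1 of 6 tested STAT genes, 2 of 15 negative regulators, 1 of 4 adaptors and 4 of 10 tested STAT3 target genes were higher. The 2 lower genes were Il11ra1 among 2 tested receptors and Junb among the STAT3 targets, the latter named after its value was seen. Without ZT20 replicates 3 and 4 none of these 10 passed in limma (adjusted p from 0.171 for Sos1 to 0.326 for Stat3), and all 10 kept their direction.

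Stat3, the main transcription factor downstream of gp130, was at 369, 363, 433 and 481 TPM at ZT20 and at 336, 237 and 244 TPM at ZT8. The groups did not overlap, with ZT20 replicate 2 only 1.08-fold above ZT8 replicate 1. The log2 difference was 0.60 (SE 0.16, limma adjusted p = 0.0376). It was −0.0092 after the length and GC correction (limma adjusted p = 0.970), 0.37 under median-ratio scaling (limma adjusted p = 0.0985), and of the fits without 1 replicate only that without ZT8 replicate 1 kept the call. Stat3 overlaps Stat5a on the other strand. Jak3, the kinase of lymphoid cytokine receptors, was at 1.28 to 3.29 TPM and 0.667 to 3.15 TPM (log2 difference −0.05, limma adjusted p = 0.935).

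Of the 4 tested adaptors that link the receptors to other pathways, Sos1 alone passed; Gab1 (0.93, limma adjusted p = 0.244), Shc1 (0.44, limma adjusted p = 0.156) and Grb2 (−0.34, limma adjusted p = 0.158), named after their values were seen, did not. Of the 15 negative regulators, Ptpn11 and Socs7 passed, both higher, a share close to the 12.8% of all genes tested that passed higher. Ptpn11, the gene of the phosphatase SHP2 that docks on gp130 at the residue SOCS3 also binds, was at 35.6, 32.1, 41.5 and 42.7 TPM at ZT20 and at 19.5, 14.0 and 18.4 TPM at ZT8, 1.09 higher on the log2 scale (SE 0.17, limma adjusted p = 0.00769). Sos1, the exchange factor that activates RAS, was at 7.19 to 8.65 TPM and 1.39 to 2.77 TPM, 1.48 higher on the log2 scale (SE 0.23, limma adjusted p = 0.00735). Socs7, a relative of Socs3, was at 5.57 to 6.93 TPM and 1.17 to 2.65 TPM, 1.26 higher on the log2 scale (SE 0.25, limma adjusted p = 0.0145). The lowest ZT20 sample stood 1.65-fold over the highest ZT8 sample for Ptpn11, 2.59-fold for Sos1 and 2.10-fold for Socs7. Socs7 did not pass without ZT20 replicate 3 or without ZT20 replicate 4. All 3 are in the longest length group, with a median of 0.69, and after the length and GC correction none passed, with Ptpn11 at 0.41 (limma adjusted p = 0.0825), Sos1 at 0.88 (limma adjusted p = 0.0536) and Socs7 at 0.57 (limma adjusted p = 0.127).

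Of the 10 tested STAT3 target genes, 4 passed higher, 1 passed lower and 5 did not pass, where 12.8% of all genes tested passed higher and 3.61% lower. Pim1, a survival kinase, was at 2.77 to 5.73 TPM at ZT20 and 0.627 to 1.65 TPM at ZT8 (log2 difference 1.23, limma adjusted p = 0.0266). Hif1a, the oxygen-sensing transcription factor, was at 26.7 to 35.8 and 8.15 to 19.4 TPM (1.14, limma adjusted p = 0.0267), Mcl1, which blocks apoptosis, at 15.6 to 20.2 and 7.44 to 10.9 TPM (0.88, limma adjusted p = 0.0178), and Myc at 21.2 to 30.7 and 12.8 to 18.0 TPM (0.77, limma adjusted p = 0.0275). After the length and GC correction Pim1 was at 1.0 (limma adjusted p = 0.0692), Hif1a at 0.77 (limma adjusted p = 0.0933) and Mcl1 at 0.62 (limma adjusted p = 0.0515), and none of these 3 passed. Without ZT20 replicate 3 or 4 none of Pim1, Hif1a, Mcl1 and Myc passed. Without ZT20 replicate 1 Pim1, Hif1a and Myc did not pass, without ZT20 replicate 2 Pim1 did not, and without ZT8 replicate 3 Pim1 and Myc did not. Junb, an immediate early transcription factor, went the other way, at 294, 235, 309 and 363 TPM at ZT20 and at 585, 469 and 372 TPM at ZT8 (log2 difference −0.65, limma adjusted p = 0.0485). The Junb call was lost in 13 of 19 alternative fits, and of the fits without 1 replicate only that without ZT8 replicate 3 kept it. Il11ra1, the receptor chain for interleukin-11, was lower with little spread, at 27.8, 30.4, 29.4 and 30.1 TPM at ZT20 and at 48.5, 51.6 and 46.0 TPM at ZT8 (log2 difference −0.71, standard error 0.12, limma adjusted p = 0.00949). Il11ra1 has a near-identical copy in the mouse genome and overlaps other genes, so how reads were divided there is uncertain.

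**Figure D3:**
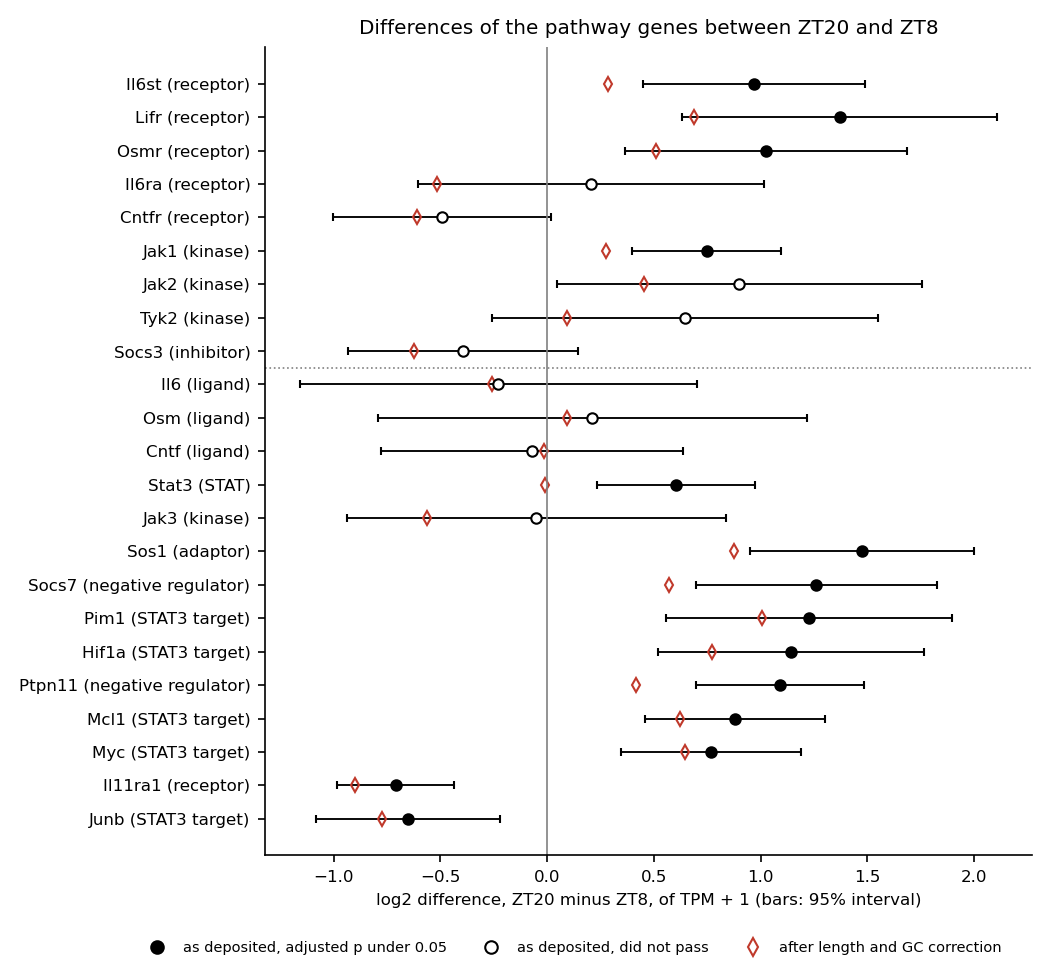
Log2 difference of TPM + 1, ZT20 minus ZT8 (horizontal axis), for the 9 tested members (above the dotted line) and the named pathway genes, with 95% intervals; filled circles passed an adjusted p of 0.05, open circles did not, and diamonds give the difference after each sample was corrected for transcript length and GC content. Il6st, Lifr, Osmr and Jak1 are the filled members, and their diamonds lie at 0.28, 0.69, 0.51 and 0.28.

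Transcript length moved with these differences. With all tested genes placed in 10 groups by the length of their longest GENCODE M21 transcript, the median log2 difference ran from −0.13 in the group around 1324 nt to 0.69 in the group around 7971 nt. Lifr (9655 nt), Il6st (8678 nt) and Il6ra (8639 nt) belong to the longest group, with differences of 1.37, 0.97 and 0.20 against its median of 0.69. Osmr (5491 nt) and Jak2 (5030 nt) differed by 1.02 and 0.90 where the median was 0.56, and Jak1 (4906 nt) and Tyk2 (4828 nt) by 0.75 and 0.64 where it was 0.47. The shorter Socs3 (2552 nt) and Cntfr (1995 nt) differed by −0.39 and −0.49 where the medians were 0.079 and −0.018. With a per-sample correction for length and GC content, 0 of the 9 members passed. Socs3 and Cntfr were then at −0.62 (limma adjusted p = 0.0871) and −0.61 (limma adjusted p = 0.187). Myc, Il11ra1 and Junb passed in that fit as well, at 0.65, −0.90 and −0.78, and Cebpd, named after its value was seen, was the other pathway gene that passed, as lower. The part of length in the differences as deposited was not tested beyond this correction.

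**Figure D4:**
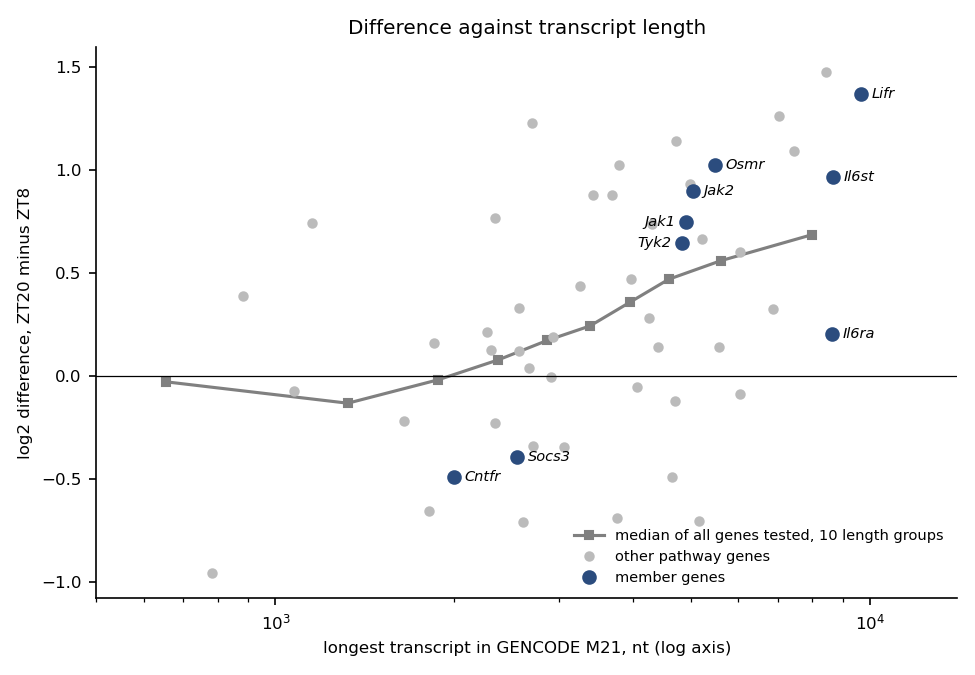
Log2 difference, ZT20 minus ZT8 (vertical axis), against the length of the longest GENCODE M21 transcript in nt (horizontal log axis) for the 9 tested members (labelled), the other tested pathway genes (light points) and the median of all genes in 10 length groups (squares). The line of medians climbs to 0.69 in the longest group; Lifr and Il6st lie above it, Il6ra, Socs3 and Cntfr below.

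Scaling between samples and cell make-up moved with the calls too. Under median-ratio scaling the median of all genes moved from 0.23 to 0.033, the share of called genes higher at ZT20 from 78.1% to 49.3%, and of the members Jak1 alone passed, at 0.51 (limma adjusted p = 0.0278). Osmr was at 0.83 (limma adjusted p = 0.0924). Under quantile normalization, which moved the median to 0.0046 and that share to 55.7%, Il6st, Lifr and Jak1 passed at 0.88, 1.42 and 0.73. With the difference of neuronal and other cell markers as a covariate, Il6st and Lifr passed at 1.35 and 1.92, and Osmr, at 1.12 (limma adjusted p = 0.174), and Jak1 did not. Of the non-neuronal lists, the satellite glia and macrophage sums above were lower at ZT20, as were 5 plasma cell markers (267 to 486 TPM against 496 to 935 TPM). The Schwann cell, fibroblast, endothelial and erythroid sums overlapped. Gene by gene, 2 of 6 satellite glia, 1 of 7 macrophage and 1 of 5 plasma cell markers passed as lower. Per the labels, neurons had been enriched before sequencing. In bulk samples fewer cells of a type and less RNA per cell cannot be told apart, and the part of cell make-up was not tested further.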

How the data were processed

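RNA was sequenced from 7 samples, ZT20 with 4 replicates and ZT8 with 3, grouped by sample title. The authors deposited TPM per gene, 1 column per sample; the number of sample columns not used was 0. The submitters' processing notes name FastQC 0.11.9, Trim Galore 0.6.6, Salmon 1.6.0, DESeq2 1.34.0 and the build GRCm39. The annotation release is not given in the sources used here. Per the labels, neurons were enriched on an albumin gradient after enzymatic dissociation, and a low-input library kit was used.

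Values were analysed as log2(TPM + 1), a scale that understates the change of scarce genes. Genes averaging 1 TPM or more over all samples were fitted with limma 3.58.1 (R 4.3.3, lmFit and eBayes with intensity trend) over all 7 samples without covariates, two-sided, with Benjamini-Hochberg adjustment over 14800 genes. On simulated data with 200 of 14800 genes changed by 1.5 on the log2 scale, 64.0% were called and 5.19% of the calls were false. The simulated noise was independent between genes and had the same spread in all samples. The change of 1.5 is above the difference of every member called, so these shares need not hold for the calls above. Lengths and GC content came from GENCODE M21 (99.6% of tested genes) and were removed per sample by loess (span 0.3) in 1 alternative. Figures were drawn with matplotlib 3.10.9.

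The members, lists, motifs and alternatives were chosen with earlier results of these data known. All 10 members were named, then Il6, Osm, Cntf, Il11, Stat3 and Jak3, then up to 8 pathway genes past the adjusted threshold with the largest absolute difference. Another gene named by this rule is not reported here.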

Additional observations from a re-analysis of the deposited data

Results flagged for a closer look

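Among the ZT20 samples, 6 of 42 values examined had 1 sample far from the other 3, judged by its gap to the nearest sample as a share of the group's range (Dixon's test, 95% critical value). Chance alone gives about 2.1 in 42. ZT20 replicate 2 was that sample, and the highest, in all 6, and several of the 6 share the same Lifr or Jak2 value. It had Lifr at 598 TPM, a share of 0.849 of the range, Jak2 at 3.77 TPM, a share of 0.951, and Jak2 at 2.30% of the summed JAK TPM. Its ratios of Lifr to Il6st, to Osmr and to Cntfr were 8.27, 122 and 30.1. The same library carried both Xist and Y-linked transcripts; what set it apart was not tested.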

How the results depend on the processing

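The number of genes called by limma was 2433. It was 3899 with array weights, 1304 after the length and GC correction, 393 with the marker score, 1178 without a filter, 4079 at an adjusted threshold of 0.10 and 624 to 3055 when 1 replicate was left out. Without ZT20 replicates 3 and 4 it was 0 (2425 at an unadjusted p under 0.05), with 2 samples against 3. Of the members, 4 passed; 0 passed after the length and GC correction and without ZT20 replicates 3 and 4, 1 under median-ratio scaling and without a filter, 2 with the marker score, and 0 to 4 when 1 replicate was left out (0 without ZT20 replicate 3 or 4, 1 without ZT20 replicate 1, ZT8 replicate 1 or ZT8 replicate 3, 2 without ZT20 replicate 2). Of the other pathway genes, 10 passed; 4 passed after the length and GC correction, 0 with the marker score and without ZT20 replicates 3 and 4, 5 without a filter, and 3 to 12 when 1 replicate was left out.

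The differences of Il6st, Lifr, Osmr, Jak1, Jak2, Tyk2, Cntfr and Socs3 kept their sign in every fit made. For Il6ra the sign changed after the length and GC correction (−0.52) and quantile normalization (−0.081), and without 1 replicate it ran from −0.14 to 0.44. Il6 was at 0.22 with array weights and 0.30 with the marker score (−0.51 to 0.29 without 1 replicate), Osm at −0.063 after quantile normalization (−0.16 to 0.61), Cntf at 0.12 without ZT20 replicates 3 and 4 (−0.38 to 0.20), Stat3 at −0.0092 after the length and GC correction, and Jak3 at 0.17 with array weights, 0.38 with the marker score and 0.058 with the replicate block (−0.47 to 0.19). None of Il6ra, Il6, Osm, Cntf and Jak3 passed in any of these fits. The cause of these changes was not tested.

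The labels give no reason to pair same-numbered samples, and their deviations from the group means correlated at −0.014, 0.15 and 0.083, so they share only a number. With the replicate block, over the 6 samples with a shared number and hence without ZT20 replicate 4, 1099 genes, 2 members (Lifr and Jak1) and 4 other pathway genes passed. Depth is unknown, so no counting error can be given for scarce transcripts such as Lif, Il11 and Jak2.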
